A study of Drosophila melanogaster with 35 samples.

Results

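The baseline transcriptome described here is that of the fat body of female Drosophila melanogaster aged 30 days that carried the S106 driver alone and were labelled RU486-. It rests on 5 of the 35 samples of the series, among 17 of fat body, chosen by genotype, tissue and induction label, and no group was compared with another. S106 is a GeneSwitch driver, a Gal4 protein that becomes active in the fat body and gut when flies eat the steroid RU486, and without a UAS transgene it has no target to switch on. The flies were raised on food with 10% yeast and 5% sucrose, were mated for 48 h and were then kept apart from males. The treatment text in the labels is the same for all samples and mentions RU486, so the absence of the drug was taken from the induction label. Each library was made from poly(A) RNA with a directional kit and 16 PCR cycles, and each carries its own library number in the labels (6, 14, 21, 29 and 37 for replicates 1 to 5). The labels do not say whether the replicates came from separate fly cultures, so the spread reported below is that between these 5 libraries, and a preparation batch cannot be told apart from a replicate.

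The fat body does for the fly what liver and adipose tissue do for a mammal. It stores triglyceride and glycogen in its cells, secretes lipoproteins, trehalose, yolk proteins, iron carriers and antimicrobial peptides into the haemolymph, and adjusts this output to insulin, TOR and adipokinetic hormone signals. In adult females it lines the body wall, where it is interleaved with oenocytes (cells that make the hydrocarbons of the cuticle), thin sheets of muscle and blood cells, and in the abdomen it lies against the ovaries, gut and Malpighian tubules. Yolk proteins are a female product of the fat body and of the follicle cells around the oocyte.

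The libraries held 8769465, 17275040, 10574109, 27527703 and 9161270 counts in replicates 1 to 5, over 14649 gene rows, of which 10592 had at least 1 count in all 5 libraries and 930 had none. Several defining genes of the labelled tissue were abundant. The 16 fat body markers together took 73708, 117419, 102208, 82378 and 52182 CPM (counts of a gene per 1000000 counts of its library). Most of each sum came from Yp1, Yp2 and Yp3, with 5.95, 9.38, 8.35, 6.03 and 3.72% of counts. Yolk proteins are also made by follicle cells. Of the 16 markers, 14 had more than 3 counts in each library, though Lsp2 among them was low. Fbp1 and Fbp2, a larval receptor and a larval protein, did not exceed 3 counts in each library. Male accessory gland and testis markers were at or near 0, with 0.114 to 0.218 CPM over the 3 in the table. Markers of neighbouring cells were present. The 5 oenocyte markers in the table took 38738, 50214, 65879, 50576 and 30235 CPM, 13 muscle markers 2371 to 2935 CPM and 6 blood cell markers 237 to 309 CPM. Most of the oenocyte sum was Cyp4g1, with 33564, 42665, 56314, 42579 and 25343 CPM. The 16 ovary and egg markers differed far more, with 4006, 5.67, 62.0, 143 and 2073 CPM in replicates 1 to 5, and 8 of the 16 were listed at 0 in replicate 2 and none in replicate 1. In RNA from bulk tissue, fewer cells of a type and less RNA per cell cannot be told apart.

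The libraries also differed from each other in many other genes. Over the 2607 genes with a mean of at least 50 CPM after TMM scaling (edgeR's trimmed mean factors, which were 1.20, 0.853, 0.799, 0.874 and 1.40), 94 differed by more than 2-fold between replicates 1 and 5, and 87 to 133 between any pair of replicates 2, 3 and 4. Between replicate 1 and each of those 3 the number was 510 to 625, and between replicate 5 and each of them 1025 to 1155. Replicates 1 and 5 lay closer to each other than to the rest, and the summed ovary and egg markers were highest in the same 2 libraries; the part of those markers in the other differences was not tested.

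Counts were concentrated in few genes, and to a different degree in each library. The 10 gene rows with the most counts held 18.0, 23.9, 24.0, 19.7 and 14.4% of a library in replicates 1 to 5, the top 100 held 39.6, 48.0, 49.4, 46.2 and 32.8% and the top 1000 held 71.4, 80.3, 81.6, 79.7 and 64.9%. Among the rows of highest mean share, Adh overlaps Adhr and asRNA:CR45601 lies inside Yp1, so reads may be counted more than once. Without rows nested in another gene the top 10 held 19.3% on average, against 20.0% with them. It took 203, 116, 104, 127 and 359 genes to reach 50% of the counts, and 2142 to 3921 to reach 90%. Replicate 3 was the most concentrated library and replicate 5 the least, by both measures of genes needed. By mean level, 9 rows exceeded 10000 CPM and held 18.7% of counts, the next 145 rows, above 1000 CPM, held 30.6%, and 1170 rows between 100 and 1000 CPM held 29.1%. A further 5597 rows between 10 and 100 CPM held 20.2%, and 2642 rows between 1 and 10 CPM held 1.22%. Of the 100 rows with the highest mean share, 42 encoded cytosolic ribosomal proteins, against 85 of the 9563 rows of at least 1 CPM, and the median exon length was 1393 bases, against 2024 bases. These are shares of reads, to which a long transcript contributes more than a short one at equal numbers, so levels of different genes are given below also per kilobase of exon, as TPM (transcript counts scaled to a fixed total).

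**Figure D1:**
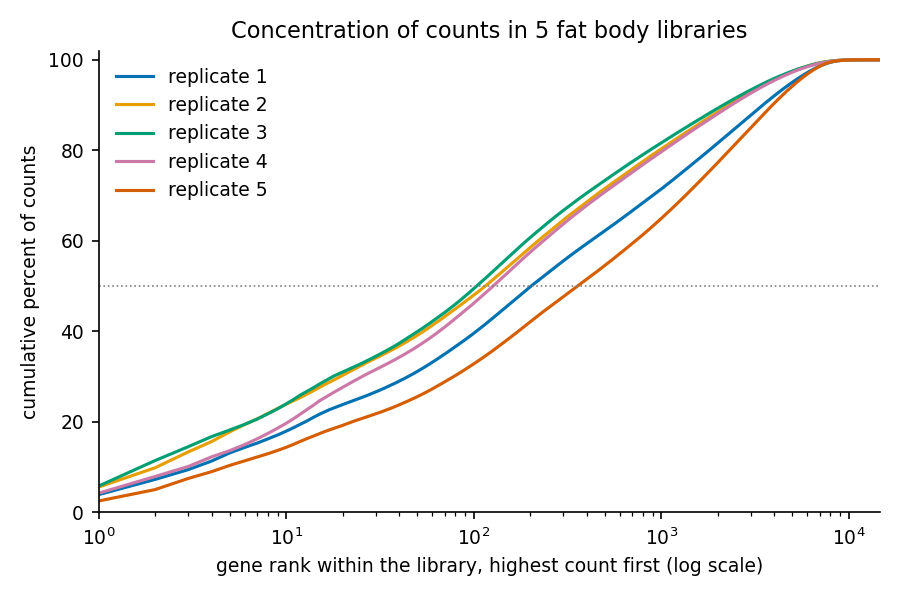
Cumulative percent of a library's counts (vertical axis) against the rank of its genes by count (horizontal axis, log scale), 1 line per replicate; the dotted line marks 50%. The lines reach 50% at 104 genes in replicate 3 and at 359 genes in replicate 5, with the other 3 replicates between 116 and 203.

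Yolk proteins were the largest single product. Yp1 (chromosome X from 10053811 to 10055498, BDGP6 annotation) took 3.94, 5.60, 5.83, 3.69 and 2.45% of counts in replicates 1 to 5 and was the first gene in replicates 1, 2 and 3. It was highest in replicates 2 and 3 and lowest in replicate 5, and the differences lie far outside counting error, since the 95% exact binomial interval of the lowest value is 2.44% to 2.46%. Such intervals cover counting error only, because copies of one molecule made by PCR may be counted as separate reads. Yp2 took 1.20, 2.15, 1.47, 1.27 and 0.762%, and Yp3 took 0.811, 1.63, 1.06, 1.07 and 0.507%, so all 3 genes had their lowest value in replicate 5. Per length, Yp1 stood at 42824 ± 13095 TPM (SD, n = 5), Yp2 at 13625 ± 4969.8 TPM and Yp3 at 8743 ± 3531 TPM. Within a library the order was the same in all 5, with the TPM of Yp2 at 25.0% to 38.2% of that of Yp1 and that of Yp3 at 15.6% to 25.1%. The gene asRNA:CR45601 lies wholly inside the exons of Yp1 on the other strand and was listed with 2.16, 3.48, 3.05, 2.20 and 1.39% of counts. It had 0.524 to 0.621 times the counts of Yp1 for 0.543 times its exon length; the strand setting of the counting is not given in the sources used here, and reads of the 2 genes cannot be told apart.

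**Figure D2:**
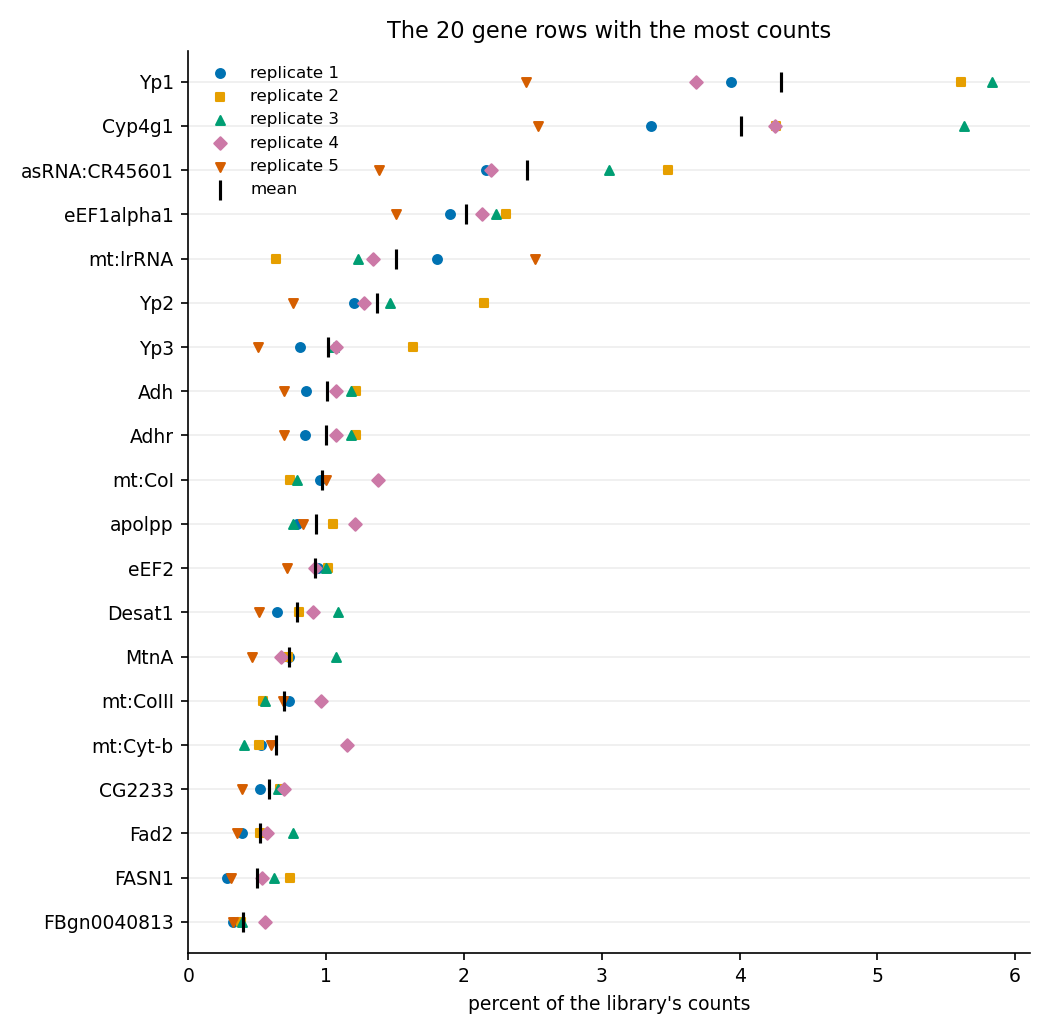
Percent of a library's counts (horizontal axis) of the 20 gene rows with the highest mean share (vertical axis), with a symbol per replicate and a bar for the mean. Yp1 and Cyp4g1 lie between 2.45% and 5.83% in all libraries, and the mean of the eighth row, Adh, is 1.00%.

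The second gene by mean share is known from oenocytes. Cyp4g1 (chromosome X from 467057 to 469335), the cytochrome P450 that makes cuticular hydrocarbons from long-chain aldehydes, took 3.36, 4.27, 5.63, 4.26 and 2.53% of counts in replicates 1 to 5 and was the first gene in replicates 4 and 5. Its level per length was 28219.7 ± 7271 TPM (SD, n = 5). The other oenocyte enzymes were lower per length. Fad2, a desaturase of the female pheromone dienes, stood at 6324 ± 1779.8 TPM, eloF, a female elongase, at 1435 ± 229 TPM, and FASN2, the fatty acid synthase of oenocytes, at 114 ± 62.4 TPM. FASN2 was highest in replicates 2 and 4, with 271, 1012, 456, 787 and 351 CPM, whereas Cyp4g1 and Fad2 were highest in replicate 3 (Fad2 3903, 5161, 7576, 5721 and 3499 CPM), so the oenocyte genes did not share one order of libraries. Cyp4g1 made up most of the cytochrome P450 class, in which 71 of 83 rows averaged at least 1 CPM and which held 3.72, 4.67, 6.13, 4.67 and 2.83% of counts. The next members were Cyp6g1 at 578 ± 151 CPM, known for metabolism of insecticides, Cyp6w1 at 403 ± 187 CPM and Cyp6d5 at 335 ± 159.5 CPM. Glutathione S-transferases, which conjugate toxins to glutathione, held 0.164% ± 0.0143 of counts, led by GstE12 at 571 ± 119.5 CPM, GstD1 at 245 ± 77.7 CPM and GstE9 at 192 ± 41.9 CPM. UDP-glycosyltransferases held 0.0562% ± 0.00493, with no member above 74.2 CPM on average (Ugt49B1).

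Genes of the translation machinery formed the largest class. Cytosolic ribosomal protein genes held 12.7, 11.9, 13.3, 12.3 and 9.73% of counts in replicates 1 to 5, lowest in replicate 5, and 21.1% ± 1.55 of TPM (SD, n = 5). Of their 91 rows 85 averaged at least 1 CPM, and 83 passed 50 CPM. By counts the class was led by RpL5 at 3880.2 ± 436 CPM, sta at 2673 ± 622 CPM, RpS3A at 2530.0 ± 261 CPM and RpS4 at 2461 ± 413 CPM. Per length, RpL41 at 8569 ± 1453 TPM and RpL23 at 6385 ± 554 TPM were among the leaders. Translation factors held 4.26% ± 0.436 of counts. eEF1alpha1, which brings aminoacyl-tRNA to the ribosome, took 1.90, 2.30, 2.23, 2.13 and 1.504% and was the fourth row by mean share, eEF2, the translocase, took 0.944, 1.01, 0.995, 0.918 and 0.717%, and eIF4A, the initiation helicase, averaged 2451 ± 275 CPM. The paralog eEF1alpha2 stood at 0.0259% to 0.0619% of the TPM of eEF1alpha1. Ribosomal paralogs known from germ cells were mostly low. The TPM of RpL22-like was at most 0.0110% of that of RpL22 and the TPM of RpS19b at most 0.0756% of that of RpS19a. RpS5b was the exception, since its TPM was 23.9, 0.00492, 0.957, 3.18 and 19.1% of that of RpS5a in replicates 1 to 5, high in replicates 1 and 5 and nearly absent in replicate 2. Mitochondrial ribosomal protein genes, all 72 of them above 1 CPM, held 0.171, 0.104, 0.0993, 0.103 and 0.207% of counts, and were higher in replicates 1 and 5 than in each of the others.

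Transcripts of the mitochondrial genome held 4.70, 2.92, 3.57, 6.22 and 5.73% of counts, highest in replicate 4 and lowest in replicate 2. The large ribosomal RNA mt:lrRNA took 1.80, 0.637, 1.23, 1.34 and 2.51% and was highest in replicate 5 and lowest in replicate 2. Its TPM was 219, 101, 180.3, 113 and 293% of that of mt:CoI, the first subunit of cytochrome c oxidase, in replicates 1 to 5, so the ribosomal and messenger transcripts of one genome did not keep one ratio between libraries. Among the messengers, mt:CoI averaged 10238 ± 2740.0 TPM (SD, n = 5), mt:CoIII 14243 ± 3563 TPM, mt:Cyt-b 9108 ± 4216 TPM and mt:ATPase6 6471 ± 2283 TPM. mt:Cyt-b was highest in replicate 4, with 5265, 5160.1, 4008, 11493 and 6014 CPM, and so were the complex I subunits mt:ND1 with 1239.5, 552, 1280.3, 3347 and 1988 CPM and mt:ND5 with 740.2, 845, 587, 2613 and 1153 CPM. The 84 nuclear genes of the respiratory chain behaved otherwise. They held 1.30, 1.33, 1.25, 1.27 and 1.21% of counts, the class above 1% that varied least between libraries relative to its mean. Its leading members were ATPsynbeta at 2138 ± 111 CPM, ATPsynC at 1855 ± 281 CPM and blw at 819 ± 276 CPM, all of ATP synthase. The electron carrier Cyt-c-p followed at 382 ± 68.3 CPM. Citric acid cycle genes held 0.427% ± 0.0692 of counts, led by ScsbetaA at 821 ± 129 CPM and Ogdh at 715 ± 236 CPM.

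**Figure D3:**
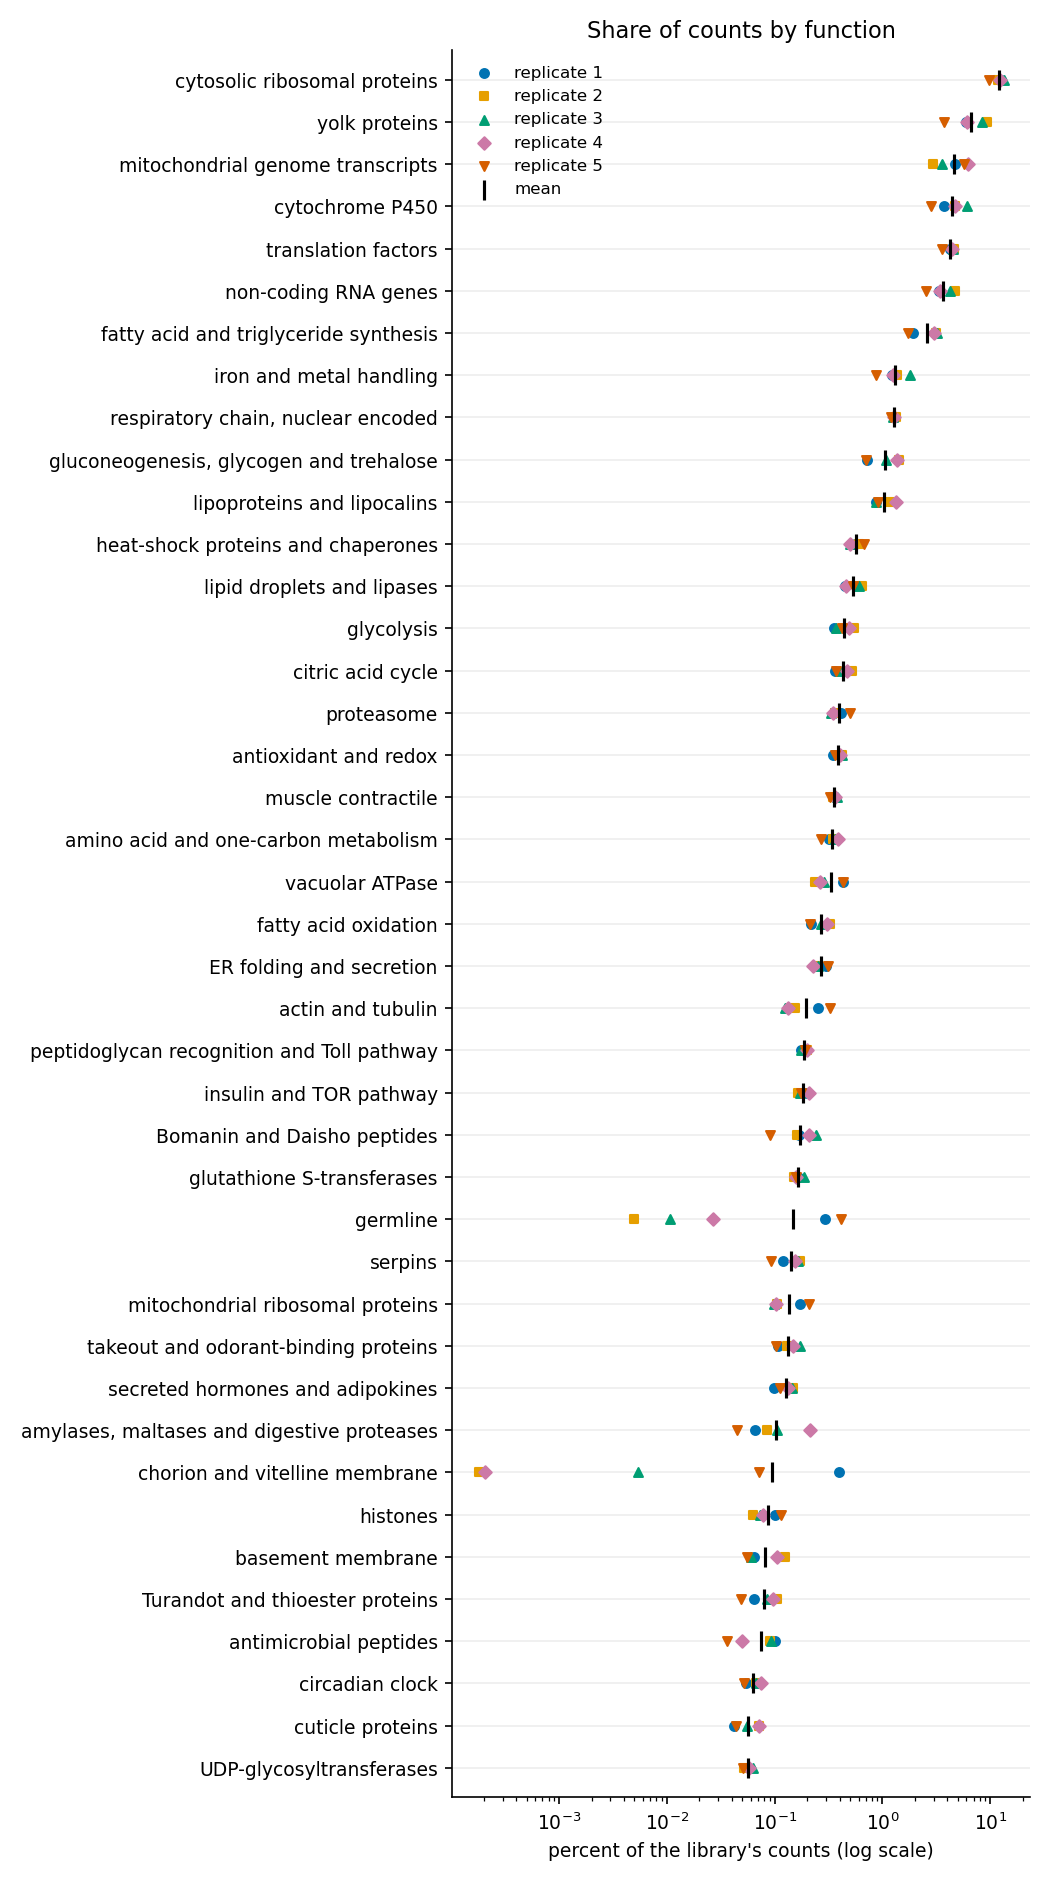
Percent of a library's counts (horizontal axis, log scale) held by the function classes above 0.03% (vertical axis), with a symbol per replicate and a bar for the mean. Cytosolic ribosomal proteins lie between 9.73% and 13.3%, while germline and eggshell genes spread over more than an order of magnitude.

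Fat synthesis was the largest of the intermediary metabolism classes. Its 23 genes were all above 1 CPM and held 1.93, 3.11, 3.21, 2.99 and 1.71% of counts in replicates 1 to 5, lower in replicates 1 and 5 than in each of the others. FASN1, the fatty acid synthase of the fat body, had 2776, 7363, 6206, 5347 and 3069 CPM. Desat1, the desaturase that makes monounsaturated fatty acids, had 6447, 8024, 10849, 9078 and 5105 CPM and was highest in replicate 3. Men, the malic enzyme that supplies NADPH, averaged 2446 ± 843 CPM, and Acsl, which activates fatty acids, 2054 ± 362 CPM. The surface proteins of lipid droplets had fewer counts than FASN1 and Desat1 in each library, which is not a comparison per length. Lsd-1, the perilipin that gates lipolysis, had 1792, 3169.9, 2768, 2145 and 1984 CPM, Lsd-2 averaged 1427 ± 273 CPM, Jabba, a histone anchor on droplets, 1163 ± 127 CPM, and the triglyceride lipase bmm 199 ± 28.5 CPM. Per length Lsd-2 was at 21.7% to 37.0% of Lsd-1. Genes of mitochondrial and peroxisomal fatty acid oxidation held 0.268% ± 0.0514, with all 14 above 1 CPM and 351 ± 62.1 CPM for the leading member wal, a subunit of the electron transfer flavoprotein, 339.6 ± 55.4 CPM for the thiolase yip2 and 316 ± 63.2 CPM for whd, the carnitine palmitoyltransferase. Lipoproteins and lipocalins held 1.03% ± 0.207, nearly all of it in apolpp. That gene (chromosome 4 from 1060969 to 1077273), which encodes the protein of the main haemolymph lipoprotein, took 0.787, 1.05, 0.760, 1.21 and 0.835% of counts and ranked eleventh by share but 137th per length, at 1276 ± 275 TPM, because its exons span 11766 bases. The transfer particle gene Apoltp averaged 93.4 ± 18.3 TPM and the assembly factor Mtp 119.7 ± 22.2 TPM.

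Genes of glucose, glycogen and trehalose output held more counts than those of glycolysis. Genes of gluconeogenesis, glycogen and trehalose held 0.715, 1.42, 1.07, 1.37 and 0.704% of counts in replicates 1 to 5, against 0.355, 0.542, 0.373, 0.486 and 0.424% for glycolysis; both classes are shares of reads. Pepck1, the committing enzyme of gluconeogenesis, had 2044, 4519, 3782, 4973 and 1962 CPM, and the row CG45087 held identical counts, and the annotation gives both the same exons. Tps1, which makes trehalose, the blood sugar of the fly, had 1607, 4186, 3149, 3560.0 and 1352 CPM, and UGP and Pgm1 averaged 979 ± 262 CPM and 794 ± 175 CPM. Pepck1 and Tps1 were lowest in replicates 1 and 5. Among glycolytic genes Ald1 averaged 1149.8 ± 272 CPM, Gapdh2 583 ± 195 CPM, PyK 525 ± 86.8 CPM and Eno 434 ± 135 CPM; Gapdh2 was highest in replicate 5, with 600.2, 502, 449, 449.5 and 913 CPM, the library in which Pepck1 was lowest. Adh, alcohol dehydrogenase, and the adjacent Adhr were listed with near equal counts, with a ratio that rounded to 1.00 in each library, over 2116 shared exon bases, so they are 1 measurement. It stood at 0.850, 1.22, 1.18, 1.07 and 0.692% of counts. Amino acid and one-carbon genes held 0.337% ± 0.0460, led by Sam-S, the S-adenosylmethionine synthetase, at 805 ± 90.4 CPM, and by Hn, phenylalanine hydroxylase, at 528 ± 133 CPM.

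Metal storage and transport came next. The 12 genes of this class held 1.21, 1.37, 1.80, 1.25 and 0.868% of counts in replicates 1 to 5, highest in replicate 3. MtnA, a metallothionein that binds copper and cadmium, had 7302, 7239.8, 10733, 6725 and 4642 CPM and, with 700 exon bases, ranked 5 per length at 16774 ± 4397 TPM (SD, n = 5). The 2 chains of secreted ferritin stayed in a narrow ratio, the TPM of Fer2LCH being 142% to 159% of that of Fer1HCH, at 2547 ± 483 TPM and 1665 ± 301 TPM. Tsf1, the iron carrier of the haemolymph, spread more, with 174, 913, 432, 741 and 149.7 CPM, highest in replicates 2 and 4. Other protective genes were less abundant, and antioxidant genes held 0.391% ± 0.0351, led by the catalase Cat at 1636 ± 478 CPM and Sod1 at 814 ± 137 CPM. Of the chaperones the constitutive Hsc70-4 was the most abundant at 3712 ± 731 CPM, and Hsp83, the fly Hsp90, had 1410.2, 643, 975, 413 and 1889 CPM, highest in replicates 5 and 1. The small heat-shock genes Hsp26 and Hsp27, which egg chambers express without stress, had 271, 4.86, 15.3, 4.50 and 542 CPM and 105, 0.984, 5.49, 0.945 and 228 CPM, likewise highest in replicates 5 and 1.

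Immune effectors were expressed without a labelled infection. The 22 antimicrobial peptide genes held 0.100, 0.0906, 0.0933, 0.0494 and 0.0362% of counts in replicates 1 to 5, lowest in replicates 5 and 4. Drs, drosomycin, an antifungal peptide of the Toll pathway, had 516, 116, 424, 10.9 and 232 CPM, with its lowest value in replicate 4. Its libraries fell in the same order as the summed spermatheca markers, which took 229.5, 33.4, 157, 0.0727 and 112 CPM, and the part of those markers in the values of Drs was not tested. AttC, an attacin of the Imd pathway, had 147, 401, 205, 186 and 52.9 CPM and was lowest in replicate 5. DptB, a diptericin, had 80.6, 128, 68.7, 95.3 and 27.1 CPM, also lowest in replicate 5. The Bomanin and Daisho peptides, short Toll effectors, held 0.167, 0.160, 0.240, 0.208 and 0.0902%, more than the classical peptides in each library. All 14 averaged at least 1 CPM, led by BomS3 with 560.1, 390.2, 968, 593 and 228 CPM and, per length, by BomS2 at 1182 ± 398 TPM and BomS3 at 1134 ± 535 TPM. The share of sensors and signalling genes of the pathways moved less, with 0.174, 0.19996, 0.175, 0.198 and 0.192%, and Rel, the NF-kB factor of the Imd pathway, had 316, 325, 334, 391 and 257 CPM. Thioester and Turandot proteins held 0.0797% ± 0.0229, led by Tep2 at 337 ± 93.9 CPM and Tep4 at 259 ± 70.3 CPM, and TotA and TotM averaged 90.5 ± 31.5 CPM and 51.2 ± 35.2 CPM. Serpins held 0.141% ± 0.0334, of which Spn43Ab at 795 ± 238 CPM was the largest, and nec, which restrains Toll activation, had 143, 364, 255, 344 and 127 CPM.

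Signalling genes were present at moderate levels. foxo, the transcription factor that the series manipulates in other groups, had 122, 118, 90.4, 166 and 120.4 CPM and 48.3 ± 11.0 TPM (SD, n = 5), and ranked 1067th by share. The 95% exact interval of its lowest value, in replicate 3, was 84.8 to 96.3 CPM and that of its highest, in replicate 4, 160.8 to 170.4 CPM, counting error only. Thor, the translational inhibitor 4E-BP and a known target of FOXO, had 623, 609, 736, 675 and 236 CPM, with 1 low value in replicate 5 and 4 values close together. It was the most abundant of the 14 insulin and TOR genes per length as well, at 1220.3 ± 391 TPM. InR, the insulin receptor, had 76.3, 21.5, 29.3, 84.2 and 70.7 CPM, low in replicates 2 and 3. The kinases S6k, Pdk1 and Akt averaged 261 ± 29.7 CPM, 194 ± 44.9 CPM and 159 ± 35.7 CPM. AkhR, the receptor of the lipid-mobilising adipokinetic hormone, had 215, 312, 260.2, 272 and 176 CPM. Of the 11 hormone and adipokine genes 8 averaged at least 1 CPM. Gbp2, a growth-blocking peptide, averaged 559.6 ± 109 CPM, CCHa2 253 ± 93.5 CPM, ImpL2, the insulin-binding protein, 227 ± 119.8 CPM, the activin-like ligand daw 132 ± 25.8 CPM and the insulin-like peptide Ilp6 31.2 ± 9.99 CPM; upd1, upd2 and upd3 had at most 0.327 CPM in any library. Clock genes held 0.0634% ± 0.00952, led by Pdp1 at 195 ± 30.0 CPM, cry at 141 ± 34.6 CPM and cwo at 126 ± 41.8 CPM. tim had 30.0, 72.2, 42.9, 34.6 and 55.7 CPM, and a time of dissection is not given in the sources used here. Basement membrane genes held 0.0638, 0.126, 0.0608, 0.104 and 0.0554%, with the collagen IV chains Col4a1 at 97.3, 376, 122, 297 and 89.4 CPM and vkg at 59.6, 233, 73.8, 194 and 59.6 CPM, both highest in replicates 2 and 4.

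Some products known from the larval fat body were almost absent. The serum storage proteins, which larvae lay down for metamorphosis, held 0.000511% of counts on average over their 6 rows, with Lsp2 at 2.74, 1.56, 3.31, 3.85 and 2.51 CPM and Lsp1beta at 1.37, 1.10, 4.07, 1.60 and 1.20 CPM. Fbp1 was listed at 0 in replicates 2 and 3, which allows up to 0.174 and 0.284 CPM. Cuticle proteins held 0.0569% ± 0.0144, with 12 of 83 rows above 1 CPM, mostly Cpr49Ab at 419 ± 119 CPM. Odorant-binding and takeout proteins held 0.132% ± 0.0286, of which Obp99c, at 801 ± 212 CPM, was the most abundant. Among rows in no class, which held 52.5, 46.7, 45.4, 48.4 and 59.7% of counts, CG2233 at 6359 ± 1286 TPM, CG4716 at 6654 ± 1294 TPM and CG16926 at 4036 ± 650.5 TPM ranked within the first 27 rows per length. The row FBgn0040813, which the reference tables used here do not pair with a symbol, took 0.325, 0.382, 0.386, 0.555 and 0.321% of counts.

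A handful of genes held much of the counts of whole chromosomes. Chromosome X held 23.2, 27.6, 27.3, 23.1 and 20.1% of counts in replicates 1 to 5, and Yp1, Yp2, Yp3, Cyp4g1 and the row inside Yp1 together made up 49.5, 62.0, 62.4, 54.0 and 37.9% of that. The row inside Yp1 alone made up 9.32, 12.6, 11.2, 9.50 and 6.88% of the counts of chromosome X. Its reads cannot be told apart from those of Yp1 and may be counted more than once. The small chromosome 4 held 2.00, 1.98, 1.66, 2.27 and 2.16%, of which apolpp alone made up 39.4, 52.9, 45.8, 53.2 and 38.7%, and apolpp, RpS3A and ATPsynbeta together 59.4% to 75.3%. Protein-coding genes held 93.3% to 93.6% of counts. The rows without a symbol held 1.19% to 1.54%, and rows with counts identical to another row 1.46% to 1.89%.

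Which genes count as steady depended on what the libraries were scaled to. Spread was measured as the SD of log2 CPM over the 5 libraries, for the 2607 genes of at least 50 CPM, and its median was 0.46 after TMM scaling and 0.37 when counts were divided by the library total. In all, 366 genes had an SD under 0.2 after TMM scaling and 461 by total counts, but 16 rows were under 0.2 by both. Among those 16, CG42306 and Gint3 held identical counts and are 1 measurement. The 15 steadiest genes after TMM scaling share 0 members with the 15 steadiest by total counts. The TMM factors were above 1 in replicates 1 and 5 and below 1 in the other 3, so a gene that is level after TMM scaling has a larger share of counts in those 2 libraries. After TMM scaling the steadiest row was asRNA:CR45350, with an SD of 0.03, and Zyx, the adhesion protein zyxin, and CG2852 were also among the 15 steadiest (SD 0.03 and 0.04). Zyx had 103, 75.5, 71.0, 78.7 and 127 CPM of total counts in replicates 1 to 5, highest in replicates 5 and 1. Tim17b, of mitochondrial import, had 137, 96.8, 98.7, 105 and 165 CPM and Rpn8, of the proteasome lid, 101, 74.8, 63.9, 68.5 and 120.0 CPM, also highest in replicates 5 and 1. By total counts the steadiest were the complex I subunits ND-18 with 59.98, 59.0, 60.1, 61.2 and 60.7 CPM and ND-20 with 117, 114, 119.9, 115.3 and 117 CPM, and the fatty acid binding protein fabp with 1132, 1128, 1149.5, 1184 and 1169 CPM, whose SDs were 0.02, 0.03 and 0.03 by total counts and 0.35, 0.36 and 0.35 after TMM scaling. These 3 and the genes steady by both scalings were picked out after their values were seen. Of the genes steady by both, elm (SD 0.18 and 0.19), Srp54k, a signal recognition particle subunit (0.18 and 0.19), and the proteasome subunits Prosalpha5 (0.19 and 0.19) and Prosbeta3 (0.20 and 0.16) had 72.3 to 101.3, 61.9 to 86.6, 89.4 to 129.5 and 90.4 to 116.7 CPM of total counts. Over all 2607 genes, the median coefficient of variation was 30.9% after TMM scaling, and the median expected from counting alone was 2.80%. After that scaling 4 genes varied no more than counting allows. For the steadiest genes counting error is not small beside the spread, as for ND-18 by total counts (60.2 ± 0.828 CPM). The order among the steadiest genes is therefore uncertain.

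Spread differed between functions. After TMM scaling the median SD was lowest for proteasome subunits (0.17, 31 genes) and vacuolar ATPase subunits (0.19, 13 genes). Among them 20 and 7 genes were under 0.2, against 14.0% of all 2607 genes. Translation factors (0.28, 31 genes), endoplasmic reticulum folding and secretion genes (0.29, 13 genes) and the insulin and TOR pathway (0.33, 9 genes) were also below the median of all 2607 genes, 0.46. Cytosolic ribosomal proteins (0.50, 83 genes) lay near it, while fatty acid and triglyceride synthesis (0.69, 21 genes), amino acid metabolism (0.71, 15 genes), cytochrome P450 (0.73, 19 genes), Bomanin and Daisho peptides (0.82, 10 genes) and antimicrobial peptides (1.41, 5 genes) lay above it. Without replicate 5 the medians were 0.49 for antimicrobial peptides, 0.48 for Bomanin and Daisho peptides and 0.30 for cytosolic ribosomal proteins. The order was not the same by total counts, where respiratory chain genes had the lower median (0.15, against 0.39 after TMM scaling) and the proteasome and vacuolar ATPase medians were 0.26 and 0.43. Several class shares were themselves highest in replicates 1 and 5. Vacuolar ATPase genes held 0.434, 0.236, 0.288, 0.262 and 0.435% in replicates 1 to 5, proteasome genes 0.417, 0.362, 0.334, 0.350 and 0.505%, and actin and tubulin genes 0.251, 0.153, 0.125, 0.132 and 0.324%. Of the 42 classes, 8 had a larger share in both replicates 1 and 5 than in each of the other libraries and 18 a smaller one in both; yolk proteins, cytochrome P450, fat synthesis, iron handling and gluconeogenesis were among the 18. For the other pairs of libraries the 2 numbers were at most 9 and 5. Vha16-1 and Vha26, proton pump subunits, had 1338, 726, 1052, 897 and 1386 CPM and 593, 244, 313, 308 and 560.2 CPM, and Act5C, the cytoplasmic actin, 955, 580.3, 415, 466 and 1206 CPM, each highest in replicates 1 and 5; the part of egg chamber RNA in these values was not tested.

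**Figure D4:**
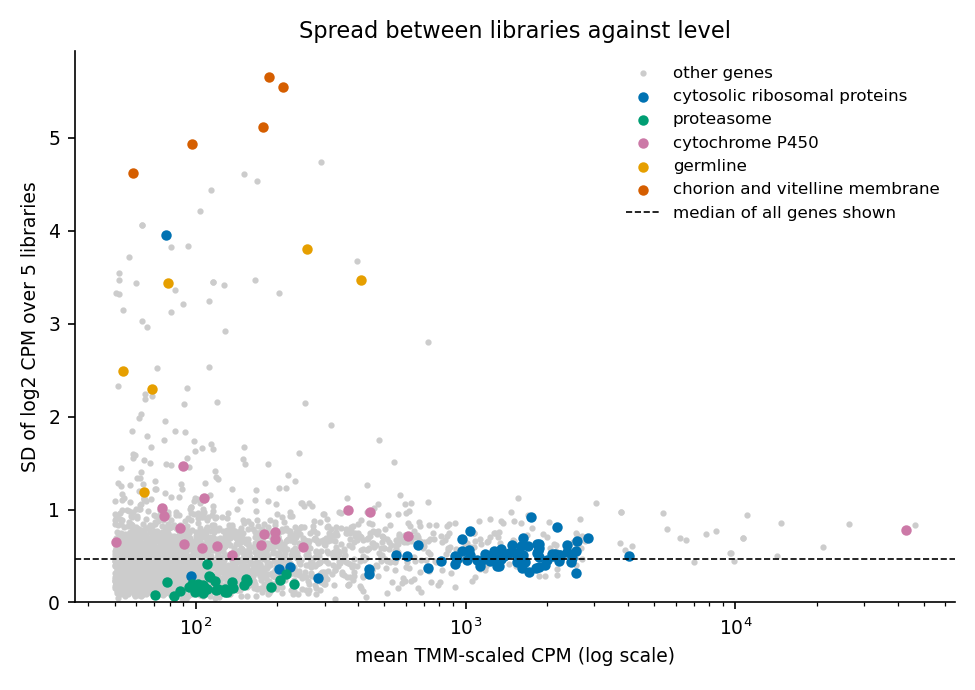
SD of log2 CPM over the 5 libraries (vertical axis) against mean TMM-scaled CPM (horizontal axis, log scale) for the 2607 genes of at least 50 CPM, with 5 classes in colour and a dashed line at the median, 0.46. Proteasome genes lie low, ribosomal proteins lie near the line except RpS5b at 3.95, and the 5 eggshell and 6 germline genes shown lie above 1. The filter is on the mean of the 5 libraries, so a gene near 0 in most of them can pass it only with a wide spread.

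Of the 2607 genes, 159 had an SD over 1 and 52 an SD over 2. Together the 159 held 3.58, 2.29, 1.92, 2.13 and 4.07% of counts in replicates 1 to 5. Left out in turn, replicate 5 mattered most for this number, which was 81 without it, and 37 genes were over 1 across replicates 2 to 4 alone, of which 28 were among the 159. The groups of variable genes described next were picked, after the values were seen, from rules applied to every library and every pair of libraries, and are descriptions only.

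The group with the most genes was high in replicates 1 and 5 and included germline genes. In 49 gene rows both replicates 1 and 5 stood at least 4-fold above the highest of the other 3 libraries, and together these held 1.57, 0.0494, 0.0788, 0.108 and 2.13% of counts in replicates 1 to 5; of the other 9 pairs of libraries, 1 gave 2 such rows and 8 gave none. The 49 rows are not all separate measurements, since BicC and CG45084 held identical counts and cup lies almost wholly within the exons of CG34310. osk, whose localised RNA places the germ plasm in the oocyte, had 691, 1.04, 8.70, 83.4 and 856 CPM. CycB, a mitotic cyclin stored in the egg, had 983, 2.84, 24.6, 56.2 and 1573 CPM, and dhd, a thioredoxin of the female germline, 937, 1.85, 27.52, 36.0 and 1580.1 CPM. The values were high in replicates 1 and 5, intermediate in replicates 3 and 4 and lowest in replicate 2. BicC and otu, both needed for egg chamber development, had 214, 0.810, 5.20, 14.8 and 526 and 246, 0.810, 9.27, 11.5 and 301 CPM, and exu, which carries bicoid RNA, 196, 4.69, 13.1, 7.56 and 209.7 CPM. His2Av, the variant histone H2Av, had 222, 18.8, 24.1, 25.1 and 324 CPM. The eggshell genes past the filter followed another order, with replicate 1 above replicate 5. Vm26Aa, a vitelline membrane protein, had 957, 0, 12.6, 0 and 166 CPM, Vm34Ca 1144, 0, 11.3, 0.0363 and 117 CPM and dec, a protein of the inner eggshell, 875, 0.0579, 12.5, 0.254 and 195 CPM. The zeros of Vm26Aa in replicates 2 and 4 allow up to 0.174 and 0.109 CPM. Of the 19 eggshell rows 5 passed the filter, and these had their highest value in replicate 1. The filter is on the mean of the 5 libraries, so they passed it through the libraries in which they were high. The chorion genes Cp36 and Cp15 stayed low and were highest in replicate 5, with Cp36 at 10.8, 0, 0.757, 0.0363 and 18.1 CPM and Cp15 at 10.1, 0, 1.80, 0.0363 and 25.3 CPM. Yolk proteins did not follow the eggshell genes, since Yp1, Yp2 and Yp3 were lowest in replicate 5.

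A separate group was missing from replicate 4. Among the 2607 genes, 11 rows were under 1 CPM in replicate 4 and at least 20 CPM in each of the other libraries, limits that were also chosen after the values were seen. They are the spermatheca marker CG9897 with 133, 22.6, 106.01, 0 and 62.7 CPM, asRNA:CR42742, which overlaps CG9897 and shares its counts almost wholly, and 9 genes without a functional name. These are CG43074 with 645, 101.9, 441, 0.0727 and 336 CPM, CG42704, CG32834, CG43090, CG31681, CG43134, CG18628, CG42705 and CG7443. The 11 rows had 20.5 to 101.9 CPM in replicate 2, the next lowest library, and at most 0.145 CPM in replicate 4, the most deeply sequenced. In 9 of the 11 the values fell in the order of replicates 1, 3, 5, 2 and 4, and in CG43134 and CG7443 replicate 5 was above replicate 3. Send1, a spermathecal endopeptidase gene below the filter on level, had 74.9, 7.47, 36.5, 0.0363 and 39.3 CPM. The 4 spermatheca markers in the table summed to 229.5, 33.4, 157, 0.0727 and 112 CPM. A further group was low in replicate 3 alone. CG16826 had 614, 1366, 9.46, 448 and 1399.8 CPM, lcs 55.4, 204, 2.27, 96.9 and 221 CPM, whe 96.0, 209.7, 4.26, 106.1 and 208 CPM, CG45080 90.3, 139, 2.55, 66.3 and 207 CPM and Ag5r 52.5, 106.05, 3.50, 32.6 and 113 CPM. They were highest in replicates 2 and 5, and their tissue of origin is not given by the lists used here.

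**Figure D5:**
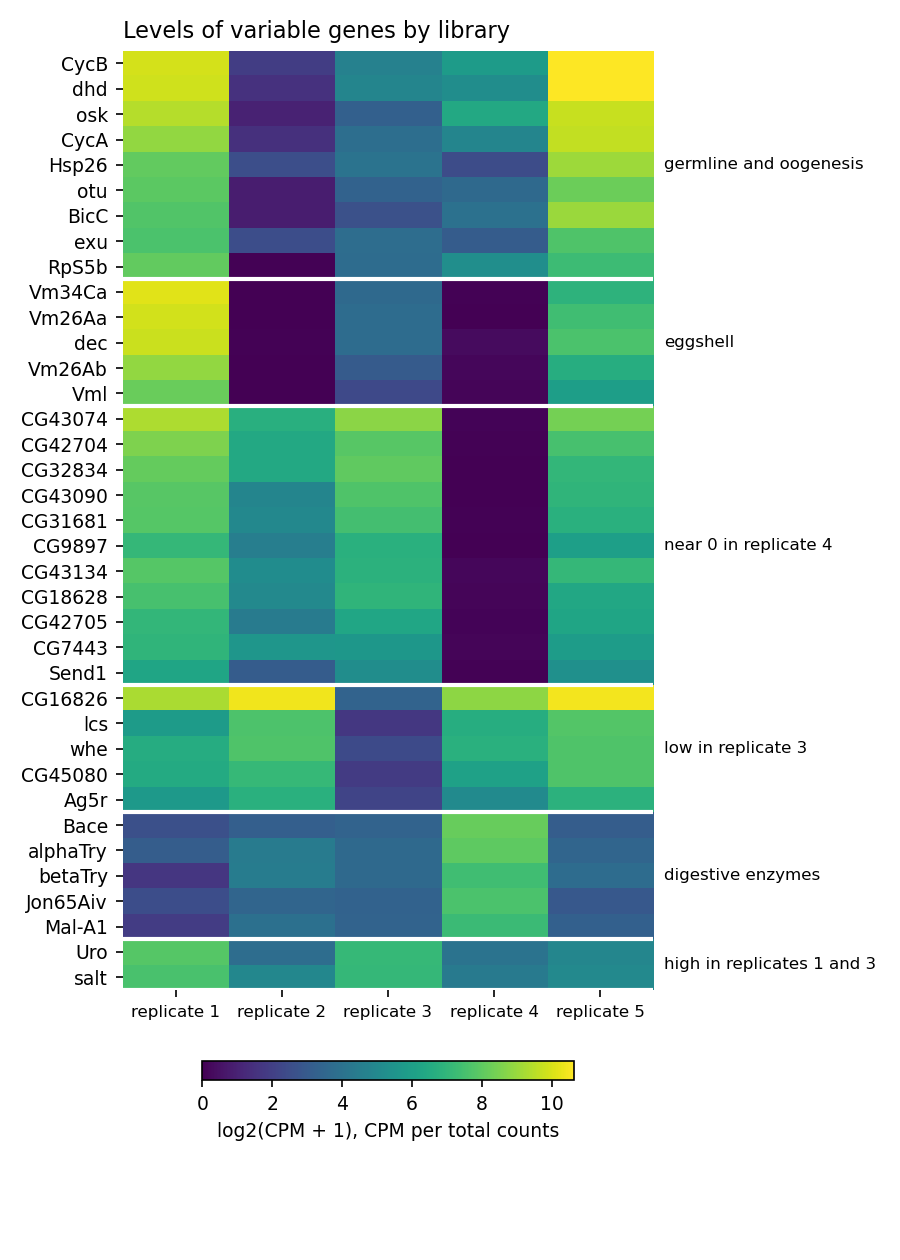
Level of variable genes (rows, grouped as named at the right) in the 5 libraries (columns), as log2 of CPM plus 1, with yellow high and dark blue low. Germline and eggshell genes are bright in replicates 1 and 5, the block around CG43074 is dark in replicate 4, the block around CG16826 is darkest in replicate 3, and digestive enzymes are bright in replicate 4.

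Replicate 4 also carried digestive enzymes. The trypsin alphaTry had 7.75, 20.5, 11.5, 255 and 10.0 CPM, the serine protease Jon65Aiv 4.68, 10.0, 9.08, 197 and 6.66 CPM, Bace, an aspartic protease of the gut, 5.02, 8.28, 9.36, 286 and 7.75 CPM and the maltase Mal-A1 2.74, 14.1, 9.55, 149 and 8.62 CPM. The 10 gut enterocyte markers summed to 29.4, 89.1, 65.7, 954 and 51.5 CPM in replicates 1 to 5, so replicate 4 stood apart. Mal-B2, another maltase, was high throughout, with 522, 635, 903, 993 and 271 CPM. In 2 genes, Uro and salt, both replicates 1 and 3 were at least 4-fold above the highest of the other 3 libraries after TMM scaling. Uro, urate oxidase, which in adults is confined to the Malpighian tubules, had 229, 13.1, 139, 15.3 and 28.4 CPM, and salt 191, 29.2, 132, 19.1 and 31.0 CPM. Other genes had their highest values in the same 2 libraries without reaching that limit, such as CG14292 with 356, 65.4, 254, 32.4 and 35.8 CPM and kumpel with 161, 37.2, 159, 33.6 and 34.5 CPM. The 3 Malpighian tubule markers summed to 305, 30.0, 169, 30.9 and 77.8 CPM, also highest in replicates 1 and 3. The photoreceptor opsin ninaE was highest in the same 2 libraries, with 18.9, 0, 13.1, 0.145 and 0.327 CPM, and the 5 photoreceptor markers summed to 24.3, 0.116, 19.6, 0.291 and 0.546 CPM. Muscle genes did not vary in this way, with 0.363, 0.346, 0.379, 0.360 and 0.328% of counts. Act57B, an actin of body-wall muscle, had 865, 819, 1017, 705 and 678 CPM, and the flight muscle genes Act88F, TpnC4 and fln had at most 0.982 CPM. Blood cell markers were present in each library, with Hml at 40.8, 81.3, 37.8, 74.4 and 51.1 CPM and NimC1 at 19.4, 24.3, 22.7, 25.5 and 16.8 CPM. Whether any of these RNAs entered with other organs at dissection was not tested.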

How the data were processed

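Poly(A) RNA from fat body of S106 control females was sequenced in 5 libraries, and the deposited values are raw counts of reads per gene. Per the submitters' processing notes the authors used FastQC, HISAT2, SAMtools, featureCounts and DESeq2; no versions are listed. The genome build, the strand setting of the counting and whether molecular barcodes were used are likewise not given in the sources used here. The table holds 12 further sample columns, which were not used.

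Shares were computed as counts divided by the library total (8769465 to 27527703 counts), and levels per length with union exon lengths of the BDGP6 annotation (Ensembl release 115, overlaps with bedtools 2.31.1). Of 14649 rows, 14538 matched a symbol and an exon length and 111 did not. Spread between libraries was the SD of log2 CPM with a prior count of 2 after TMM scaling in edgeR 4.0.16 (R 4.3.3), for genes of at least 50 CPM. The rest used Python 3.11.15, and the spread calculation was tested on simulated data. In that simulation genes varied independently, with no shift in composition between libraries, so it does not bear on the choice of scaling. No comparison of groups was tested, since there is 1 group. A gap above 0.71 of the range was used only to flag values. A count of 0 allows up to 3 counts, 0.109 to 0.342 CPM by library.

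The genes and lists were chosen with earlier results of these data known. Genes named are the 20 of highest mean share, the 10 next of highest TPM, the 15 of smallest and of largest SD, up to 4 of highest mean CPM in each class and marker list, and foxo, Thor, InR, AkhR, Ilp6 and bmm. Any other gene, and the rules for variable groups (8-fold for 1 library against the median of the other 4, 4-fold for a pair), were chosen after the values were seen. Alternatives changed the scaling, filter, prior count, denominator, length unit and libraries used. Some genes that meet the rule for named genes are not reported here.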

Additional observations from a re-analysis of the deposited data

Results flagged for a closer look

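In 16 of 241 values examined (6.64%), 1 library lay apart from the other 4 by a gap above 0.71 of the whole range. For independent, unselected values of a normal distribution, chance passes that limit in about 1 of 20 groups. The values here included genes picked because 1 library stood apart, and sums over such genes, so 6.64% cannot be set against that rate. Of these 16, 9 concern replicate 4, 4 replicate 1, 2 replicate 5 and 1 replicate 3.

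In replicate 4 the gut enterocyte markers summed to 954 CPM, against 29.4 to 89.1 CPM in the other 4 libraries. Among digestive enzymes there, Bace had 286 CPM, alphaTry 255 CPM, Jon65Aiv 197 CPM and Mal-A1 149 CPM. Also highest in replicate 4 were mt:Cyt-b with 11493 CPM, mt:ND5 with 2613 CPM and the row FBgn0040813 with 5547 CPM. The cytokine gene upd2 had 0.0727 CPM there and 0 elsewhere, which is below the 3 counts that a 0 allows.

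In replicate 1 chorion and vitelline membrane genes held 0.398% of counts, against at most 0.0717% in the others. Vm34Ca had 1144 CPM, Vm26Aa 957 CPM and dec 875 CPM.

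In replicate 5 Thor was lowest, with 236 CPM against 609 to 736 CPM in the others, and the flight muscle gene fln was highest, with 0.982 CPM. In replicate 3 the larval serum protein gene Lsp1beta had 4.07 CPM, against 1.10 to 1.60 CPM in the others.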

How the results depend on the processing

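Of the values that answer a described question, 241 under the alternatives stayed within the spread between libraries or within 1.5 times and 58 moved further. Of those for single genes and smaller classes, 584 stayed and 97 moved. For percentages of counts and for concentration, the limit was the SD between libraries. Leaving out 1 library, or taking the median in place of the mean, cannot move such a value that far. The numbers that stayed include these settings, so they do not measure how robust the shares are.

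Shares changed most when given per length, as percent of TPM by union exons and by longest transcript: 7.22% and 6.96% for mitochondrial genome transcripts, 21.1% and 21.2% for cytosolic ribosomal proteins, 3.17% and 3.24% for translation factors, 1.86% and 1.89% for the nuclear respiratory chain, 0.158% and 0.158% for lipoproteins, 1.17% and 1.32% for fat synthesis, 0.657% and 0.647% for gluconeogenesis, 2.14% and 2.17% for metal handling, and 3.15% and 3.04% for cytochrome P450. The respiratory share was 1.39% without mitochondrial and non-coding genes in the total and 1.33% without nested rows.

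Genes with an SD under 0.2 numbered 963 from 10 CPM up, 34 from 200 CPM up and 1150 without replicates 1 and 5. Genes over 1 numbered 244 by total counts, 659 from 10 CPM up, 31 from 200 CPM up and 37 without replicates 1 and 5, and 81 to 221 when 1 library was left out. Of the 15 steadiest genes, 0 remained by total counts, 6 from 10 CPM up, 2 from 200 CPM up, 0 without replicates 1 and 5, 6 by the tagwise coefficient of variation and 4 to 9 with 1 library left out. Of the 15 most variable, 2 remained from 200 CPM up, 7 without replicates 1 and 5, 9 by the coefficient of variation and 6 to 15 with 1 library left out.

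The median SD of all genes was 0.19 without replicates 1 and 5. By total counts and without those replicates, class medians were 0.22 and 0.19 for ribosomal proteins, 0.15 and 0.14 for the respiratory chain, 0.42 and 0.25 for fat synthesis, 0.44 and 0.21 for cytochrome P450, and 0.26 and 0.096 for the proteasome. Translation factors were at 0.14 without those replicates, and the vacuolar ATPase at 0.43 by total counts. With 1 library left out, ribosomal proteins ranged over 0.30 to 0.56 and mitochondrial transcripts over 0.23 to 0.74, lowest without replicate 4. Leaving out replicates 1 and 5, nested rows, and the longest-transcript length were chosen after seeing the data. The causes were not tested. No paired analysis was possible because the text compares no groups.

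With 5 libraries of unknown culture origin, an SD is itself imprecise, and steadiness here describes these libraries. Depth limits genes under 1 CPM, where the floor is 0.109 to 0.342 CPM. Rows that overlap another gene may share its reads.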
